A study of Mus musculus with 6 samples.

Results

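Adipogenic regulators and lipid storage genes are described here in mouse embryonic fibroblasts (MEFs), connective tissue cells grown from mouse embryos that can be driven to become fat cells in culture. The group holds 10 genes, chosen by name: the nuclear receptor gene Pparg, the C/EBP genes Cebpa, Cebpb and Cebpd, the zinc finger gene Zfp423, the EBF family gene Ebf2, and the lipid genes Lpl, Cd36, Fabp4 and Plin2. All 10 were found by Ensembl identifier among the 56953 genes of the table. Poly-A selected RNA was sequenced from 3 WT libraries and 3 libraries labelled GαqKO, a label under which the study describes MEFs that lack Gαq and Gα11, the alpha subunits that couple receptors to phospholipase C. The study asked how the loss of Gαq changes the traits of fibroblasts. All cells were grown in DMEM with 10% fetal bovine serum, and no adipogenic cocktail is named in the labels. The study speaks of each as a cell line and does not say whether it is a clone, so genotype and line cannot be told apart.

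Fat cell formation is a relay of transcription factors. C/EBPβ and C/EBPδ come first and switch on PPARγ and C/EBPα, which then sustain each other and turn on the genes of fatty acid import and storage. Zfp423 and EBF2 act before this relay, in the commitment of fibroblast-like precursors to the white or brown fat lineage.

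The values are normalized counts, which are the reads counted on a gene after division by the size factor of its library. Reads on genes ranged from 9853000 to 12229175 in the 5 libraries where they could be recovered. Fold changes compare the libraries labelled GαqKO with WT on the log2(normalized count + 1) scale, which understates changes of genes with few reads. They come from limma, with p-values adjusted by the Benjamini-Hochberg method over the 14096 genes that reached 10 normalized counts in 3 or more libraries. A gene was called at an adjusted p under 0.05, and a second count takes only calls with a log2 fold change over 1 in size. Gnaq, the gene of Gαq, had 1665, 1660.2 and 1747 normalized counts in WT and 1959.7, 1931 and 1888 in the libraries labelled GαqKO, so its transcript was not lower there, while Gna11 went from 2148 ± 29.0 to 452 ± 28.7 normalized counts (SD, n = 3 each). Libraries are therefore named by their labels, and each direction rests on those labels. By Western blot and immunofluorescence, the study reports that its GαqKO MEFs lack Gαq protein. Transcript counts do not measure protein. Ddx3y, a Y-linked gene, had 1197 ± 52.3 normalized counts in WT (SD, n = 3) and was listed at 0 in each library labelled GαqKO, so the groups also differ in a trait that the genotype label does not name.

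Of the 9 members that passed the filter, 2 were higher and 4 were lower in the libraries labelled GαqKO and 3 were not called, while Cd36 was under the filter. Cebpb and Fabp4 were higher, and Lpl, Cebpa, Pparg and Ebf2 were lower. Calls were common in this comparison: 65.8% of all genes tested had an adjusted p under 0.05 (31.8% higher, 34.1% lower). With the fold threshold added, 1 member was higher (Fabp4) and 4 were lower, against 20.7% of all genes tested (10.2% higher, 10.5% lower). The groups of 3 did not overlap for the same 6 members, as for 69.6% of all genes tested. The median log2 fold change was -0.13 over the 9 members and -0.01 over all genes tested. Pparg, Cebpa, Lpl and Ebf2 entered the test through the WT libraries alone and Fabp4 through the libraries labelled GαqKO alone, so for these 5 the filter itself asked for a difference.

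**Figure D1:**
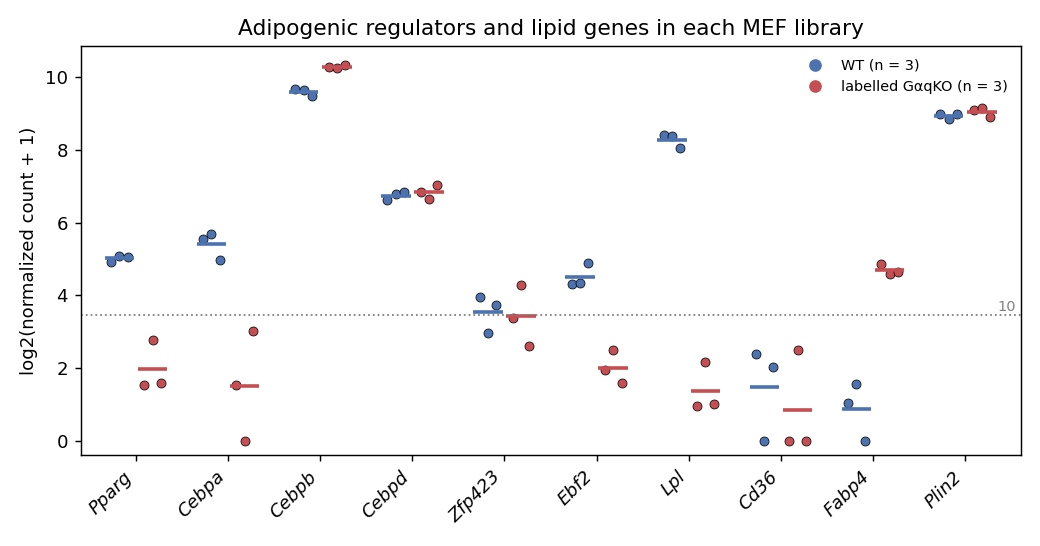
Normalized counts of the 10 genes in each library, as log2(normalized count + 1) on the vertical axis, with 3 WT libraries (blue) and 3 libraries labelled GαqKO (red) per gene; bars are group means and the dotted line marks 10 normalized counts. Pparg, Cebpa, Ebf2 and Lpl lie above the line in WT and below it in the libraries labelled GαqKO, Fabp4 does the opposite, and Cebpd, Zfp423, Cd36 and Plin2 overlap.

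Pparg encodes PPARγ, the receptor on which fat cell formation depends. The gene (ENSMUSG00000000440.13) lies on the plus strand of chromosome 6 from 115337675 to 115468268 in GRCm39. It had 29.2, 33.0 and 32.6 normalized counts in the WT libraries. Under the GαqKO label the values were 1.88, 5.78 and 2.01. All WT values were above all values of the other group, and the highest value labelled GαqKO was far under the lowest WT value. The means were 31.6 ± 2.07 and 3.22 ± 2.22 normalized counts (SD, n = 3 each), with a log2 fold change of -3.07 (standard error 0.411, 95% interval -3.95 to -2.18, adjusted p = 1.69e-05 from limma). Over the 5 libraries with recovered reads, 94 WT reads stood against 7, a WT level 8.73 times higher (95% counting interval 4.07 to 22.3).

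Cebpa encodes C/EBPα, the partner that keeps PPARγ on in the differentiating cell. The gene (ENSMUSG00000034957.11; chromosome 7, 34818718 to 34821353, plus strand) had 45.9, 50.5 and 30.5 normalized counts in WT. In the libraries labelled GαqKO it had 1.88, 0 and 7.05. The groups were again apart, and 1 library labelled GαqKO was listed at 0. The means of 42.3 ± 10.5 and 2.98 ± 3.65 normalized counts (SD, n = 3 each) gave a log2 fold change of -3.89 (standard error 0.604, 95% interval -5.20 to -2.59, adjusted p = 6.54e-05 from limma). Only 2 reads lay behind the 2 libraries labelled GαqKO with recovered reads, against 126 in WT, so the ratio of 40.9 has a wide counting interval of 11.1 to 342. That ratio leaves out GαqKO replicate 3, the highest of its group, and over all 6 libraries the WT mean was 14.2 times the other.

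Cebpb encodes C/EBPβ, the early factor that acts ahead of both. The gene (ENSMUSG00000056501.4; chromosome 2, 167530835 to 167532338, plus strand) moved the other way from Pparg and Cebpa. It had 816, 806 and 719 normalized counts in WT and 1243, 1231 and 1305 in the libraries labelled GαqKO. The groups were well separated and tight, at 780.1 ± 53.5 and 1259.9 ± 39.6 normalized counts (SD, n = 3 each). The log2 fold change was 0.69 (standard error 0.0598, 95% interval 0.56 to 0.82, adjusted p = 2.05e-07 from limma), which is 1.62 times the WT mean and short of the fold threshold. Peds1 on the opposite strand shares 20.7% of the exon bases of Cebpb and went from 66.4 ± 7.55 to 205 ± 20.9 normalized counts (SD, n = 3 each). The strand setting of the counting is not given in the sources used here, so reads from the shared bases cannot be told apart.

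Cebpd encodes C/EBPδ, the second early factor. The gene (ENSMUSG00000071637.6; chromosome 16, 15705150 to 15708895, plus strand) had 98.2, 109 and 113 normalized counts in WT. The other 3 libraries had 114, 99.4 and 129.9. The groups overlapped. The log2 fold change was 0.09 (standard error 0.145, adjusted p = 0.588 from limma), and its 95% interval ran from -0.22 to 0.41. Spidr on the opposite strand shares 15.0% of the exon bases of Cebpd and went from 344 ± 16.3 to 215 ± 8.59 normalized counts (SD, n = 3 each).

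Set per kilobase of the canonical transcript, Cebpb was by far the most abundant of the 4 relay genes, with 519 normalized counts per kilobase in WT and 838 in the libraries labelled GαqKO. Cebpd followed at 28.5 and 30.5 normalized counts per kilobase. Pparg and Cebpa were low even in WT, at 11.54 and 16.12, and stood at 1.18 and 1.13 normalized counts per kilobase in the libraries labelled GαqKO. The early factors were thus present in both groups, and the late pair was measurable in the WT libraries. In the others, the means of Pparg and Cebpa, 3.22 and 2.98 normalized counts before scaling by length, were close to the floor. The floor was set at 3 counts per library, under which a library was not told from 0. Above it stood Pparg in GαqKO replicate 2 (5.78) and Cebpa in GαqKO replicate 3 (7.05). Of the exon bases of Cebpb and Cebpd, 60.4% and 48.3% lie inside the spans of other genes, exons and introns together. For Pparg and Cebpa the shares were 10.1% and 11.9%. Any effect of this on the levels was not tested.

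The promoters of 3 of these genes are shown because Pparg and Cebpa fell while Cebpb rose. Each sequence runs from 250 bases before to 30 bases after a RefSeq start, read 5′ to 3′ on the gene's strand, and was placed in GRCm39 by exact match. Capitals mark a C/EBP-type motif (TTNNGCAA, either strand) or a TATA box (TATAAA, either strand). The Pparg window is that of the downstream start used by the fat cell form PPARγ2.
Pparg, chr6:115398777-115399056: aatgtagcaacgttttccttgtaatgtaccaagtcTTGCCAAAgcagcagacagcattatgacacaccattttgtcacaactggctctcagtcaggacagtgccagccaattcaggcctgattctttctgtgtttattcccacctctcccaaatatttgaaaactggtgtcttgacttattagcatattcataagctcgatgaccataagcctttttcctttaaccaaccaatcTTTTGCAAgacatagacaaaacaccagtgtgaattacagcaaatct
Cebpa, chr7:34818468-34818747: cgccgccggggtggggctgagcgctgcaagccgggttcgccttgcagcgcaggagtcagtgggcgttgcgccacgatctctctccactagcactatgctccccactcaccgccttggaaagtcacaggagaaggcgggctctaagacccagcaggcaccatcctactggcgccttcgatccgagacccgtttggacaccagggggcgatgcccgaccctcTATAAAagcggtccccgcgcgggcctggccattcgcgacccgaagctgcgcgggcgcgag
Cebpb, chr2:167530585-167530864: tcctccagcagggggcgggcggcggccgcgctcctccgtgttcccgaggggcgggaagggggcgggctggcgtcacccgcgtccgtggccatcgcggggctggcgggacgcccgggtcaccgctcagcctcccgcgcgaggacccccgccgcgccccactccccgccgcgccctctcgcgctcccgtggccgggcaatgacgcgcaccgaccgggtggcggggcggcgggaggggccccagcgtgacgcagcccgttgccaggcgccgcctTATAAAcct

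The downstream Pparg window held the C/EBP-type letters at 2 places, TTGCCAAA starting at base -215 and TTTTGCAA at base -16 from the start. The 2 other Pparg windows in the table, at the upstream starts, held none, although a TATA box on the minus strand stood 29 bases before 1 of those starts. Cebpa had a TATA box 30 bases before its start. In Cebpb a TATA box stood 21 bases after the annotated start. Among all 32851 windows of 300 bases in the table, 10.8% held the C/EBP-type letters and 13.6% the TATA box. Of the 9 windows of the 6 members with an entry (Pparg, Cebpa, Cebpb, Plin2, Cd36 and Zfp423), 2 held the C/EBP-type letters and 3 the TATA box, and the direct repeat read by PPARs (AGGTCA repeated after 1 base, either strand) was in none of these and in 0.0396% of all windows. Such a match is a description of letters and shows no binding. The table counts reads over the whole gene and does not tell which Pparg start was used.

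The commitment factors split. Ebf2 encodes an early B cell factor that marks brown and beige fat precursors. It (ENSMUSG00000022053.14; chromosome 14, 67470736 to 67668394, plus strand) had 18.8, 19.4 and 28.5 normalized counts in WT. Those labelled GαqKO had 2.82, 4.62 and 2.01. Every WT library was above every library of the other group, at means of 22.2 ± 5.43 and 3.15 ± 1.34 normalized counts (SD, n = 3 each). The log2 fold change was -2.51 (standard error 0.408, 95% interval -3.39 to -1.63, adjusted p = 1.00e-04 from limma), with 66 reads in 3 WT libraries against 7 in 2 labelled GαqKO. Exons of Gm10860 and Gm20675 share 12.9% of its exon bases, and both of these genes were listed at 0.

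Its paralogue Ebf1, which also promotes fat cell formation, moved in the opposite direction. Ebf1 had 31.3, 23.3 and 31.6 normalized counts in WT and 273, 229 and 262 in the libraries labelled GαqKO. The groups did not overlap, and the log2 fold change was 3.11 (standard error 0.168, adjusted p = 1.56e-09 from limma). The third EBF gene measured, Ebf3, differed by a log2 fold change of 0.30 (adjusted p = 0.0449 from limma), a call that was lost without any 1 library other than GαqKO replicate 3 (adjusted p up to 0.122 from limma) and with DESeq2. Per kilobase, Ebf1 and Ebf2 stood at 4.80 and 4.36 normalized counts in WT and at 42.5 and 0.618 in the libraries labelled GαqKO. Of the exon bases of Ebf2, 54.3% lie inside the spans of other genes, against 0% for Ebf1. Any effect of this on the 2 levels was not tested.

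Zfp423, a zinc finger regulator of preadipocyte commitment (ENSMUSG00000045333.16; chromosome 8, 88388438 to 88687289, minus strand), had 14.6, 6.80 and 12.2 normalized counts in WT. The libraries labelled GαqKO had 9.39, 18.5 and 5.04, and both the highest and the lowest value of all 6 libraries were in that group. The log2 fold change was -0.13 (standard error 0.469, adjusted p = 0.817 from limma), and the 95% interval of -1.14 to 0.88 holds changes of about 2-fold either way. Its sign turned when WT replicate 1 or GαqKO replicate 3 was left out. Zfp521, a related zinc finger gene that opposes Zfp423, was higher, at 91.7 ± 12.4 in WT and 196 ± 15.5 normalized counts in the libraries labelled GαqKO (SD, n = 3 each; log2 fold change 1.10, adjusted p = 7.92e-06 from limma).

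The lipid genes did not move as a set. Lpl encodes lipoprotein lipase, which frees fatty acids from circulating lipoproteins, and it showed the largest difference of the 10 genes. It (ENSMUSG00000015568.17; chromosome 8, 69284603 to 69360100, plus strand) had 341, 331 and 265 normalized counts in the WT libraries. In those labelled GαqKO the values were 0.939, 3.47 and 1.01. WT expression was thus well measured and the other group was at the floor, with no overlap. Means of 312 ± 41.7 and 1.80 ± 1.44 normalized counts (SD, n = 3 each) gave a log2 fold change of -6.91 (standard error 0.327, 95% interval -7.61 to -6.20, adjusted p = 3.88e-10 from limma). In recovered reads, 928 in WT stood against 4 in the 2 libraries labelled GαqKO, a ratio of 151 with a counting interval of 58.7 to 555.

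Fabp4 encodes the fatty acid binding protein of fat cells, a classical target of PPARγ, and it changed in the opposite direction from Pparg. The gene (ENSMUSG00000062515.4; chromosome 3, 10268785 to 10273737, minus strand) had 1.04, 1.94 and 0 normalized counts in WT. The libraries labelled GαqKO had 28.2, 23.1 and 24.2. The groups did not overlap, and the WT libraries were at the floor. Means of 0.996 ± 0.972 and 25.2 ± 2.66 normalized counts (SD, n = 3 each) gave a log2 fold change of 3.84 (standard error 0.491, 95% interval 2.78 to 4.90, adjusted p = 1.07e-05 from limma). The 3 WT libraries held 3 reads and the 2 libraries labelled GαqKO with recovered reads 50, a ratio of 25.6 with a counting interval of 8.29 to 129. Per kilobase its level after the rise, 18.5 normalized counts, was still well under that of its paralogue Fabp5, at 131 in WT and 146 in the libraries labelled GαqKO. Fabp5, the epidermal form, was not called, with a log2 fold change of 0.15 (95% interval -0.11 to 0.41, adjusted p = 0.294 from limma). None of Fabp1, Fabp2, Fabp3, Fabp6 and Fabp7 reached the filter, and Fabp2 and Fabp7 were listed at 0.

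Plin2 encodes perilipin 2, the droplet coat found on small lipid droplets of most cells. The gene (ENSMUSG00000028494.13; chromosome 4, 86565912 to 86588459, minus strand) had 505, 460.5 and 505 normalized counts in WT. The libraries labelled GαqKO had 551, 568 and 477, so the groups overlapped in 1 library. The log2 fold change was 0.12 (standard error 0.0783, 95% interval -0.05 to 0.28, adjusted p = 0.211 from limma). Without GαqKO replicate 3 it was 0.19 (adjusted p = 0.04999 from limma), and edgeR on the recovered reads of the same 5 libraries gave 0.20 (adjusted p = 0.0386) where DESeq2 gave 0.20 (adjusted p = 0.19). Any difference in Plin2 was therefore small beside those of Lpl and Fabp4. Its paralogue Plin3 was higher, at 501 ± 27.7 against 662 ± 18.5 normalized counts (SD, n = 3 each; log2 fold change 0.40, adjusted p = 8.95e-05 from limma). Plin1 and Plin5, whose proteins coat the droplets of fat cells and oxidative tissues, were under the filter in both groups.

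Cd36, a receptor that takes up long-chain fatty acids (ENSMUSG00000002944.16; chromosome 5, 17986432 to 18094067, minus strand), had 4.18, 0 and 3.05 normalized counts in WT. The libraries labelled GαqKO had 0, 4.62 and 0. The gene was at or close to the floor in all 6 libraries, and no difference was detectable at this depth. The 7 WT reads and 4 reads labelled GαqKO gave a ratio of WT to GαqKO of 1.14 with a counting interval of 0.289 to 5.30.

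**Figure D2:**
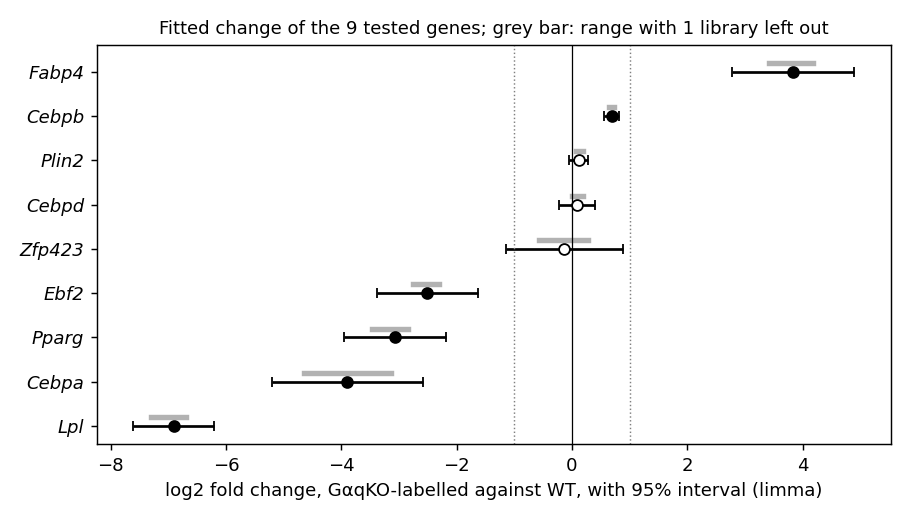
Fitted log2 fold change of the 9 tested genes, libraries labelled GαqKO against WT, with the 95% interval from limma (black bars) and the range when each of the 6 libraries was left out in turn (grey bars); filled points have an adjusted p under 0.05 and dotted lines mark a log2 fold change of 1 in size. Fabp4 (3.84) and Cebpb (0.69) lie right of 0, Ebf2, Pparg, Cebpa and Lpl lie between -2.51 and -6.91, and Plin2, Cebpd and Zfp423 have intervals that reach across 0.

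When the fit was repeated without each library in turn, with genes entering at 10 normalized counts in 2 libraries because the smaller group then held 2, the fitted change (log2) ran from -3.47 to -2.85 for Pparg, from -4.64 to -3.14 for Cebpa and from -7.30 to -6.70 for Lpl. The range was -2.75 to -2.30 for Ebf2, 3.41 to 4.19 for Fabp4 and 0.63 to 0.73 for Cebpb. The highest adjusted p of the 6 in these fits was 0.00139, for Ebf2 (limma). Apart from Cebpb, these genes entered through the group in which they were high, so the ranges describe the spread of the fitted value only. The members lie on 9 chromosomes, whose median log2 fold changes over the genes tested ran from -0.35 (chromosome 4, Plin2) to 0.32 (chromosome 3, Fabp4). Lpl and Zfp423 share chromosome 8, where the median was 0.29.

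The wider pathways were read from gene lists that leave out the 10 members. Listed genes under 10 normalized counts throughout a group entered the test through the other group alone, so the filter asked for a difference. Among the genes named below these include Dlk1, Wt1, Prdm16, Zic1, Angptl4, Pdk4 and Thy1, and their calls are part of the counts given. Among 25 other factors that favour fat cell formation, 20 were tested, 7 were higher and 9 were lower, with a median log2 fold change of -0.11. Past the fold threshold were Ebf1 and Klf5 on the high side and Bmp4 and Stat5b on the low side. Klf5, a Krüppel-like factor that acts together with C/EBPβ and C/EBPδ on Pparg, rose from 633 ± 55.8 to 1725 ± 48.6 normalized counts (log2 fold change 1.45, adjusted p = 2.12e-10 from limma). Bmp4, a ligand that commits precursors to the fat lineage, fell by 1.86 on the log2 scale, from 400.0 ± 18.3 to 109.8 ± 12.3 normalized counts (SD, n = 3 each), and 31.1% of its exon bases are shared with other genes. Stat5b fell by 1.11 on the log2 scale. Rxra, the gene of a partner receptor of PPARγ, rose from 1104 ± 49.2 to 1907 ± 95.4 normalized counts (log2 fold change 0.79, adjusted p = 1.74e-08 from limma), and Rxrb by 0.20 (adjusted p = 0.00568 from limma, not called by DESeq2), while Rxrg was under the filter.

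All 22 listed factors that hold back fat cell formation were tested, and 12 were higher and 9 lower, with a median log2 fold change of 0.41. Dlk1, the gene of preadipocyte factor 1, was listed at 0 in each WT library and had 1469.6, 1542 and 1399.8 normalized counts in the libraries labelled GαqKO. Against a floor of 3 counts per library it was at least 490.2-fold higher. Wnt10b, a Wnt ligand that blocks Pparg and Cebpa induction, was higher, at 536 ± 79.4 in WT and 2536 ± 160.3 normalized counts in the other group (SD, n = 3 each; log2 fold change 2.25, adjusted p = 4.71e-11 from limma). Foxc2 rose by 3.17, Wnt6 by 2.27, Zfp521 by 1.10 and Gata2 by 1.06 on the log2 scale. On the low side, Wnt5a, Gata3 and Id2 fell by 3.49, 2.51 and 2.38 on the log2 scale, so the Wnt ligands and the GATA factors of the list were each divided. Gata2 and Gata3, related repressors of Pparg, stood at 191 ± 24.6 and 256 ± 30.9 normalized counts in WT and at 399 ± 48.9 and 44.8 ± 11.02 in the libraries labelled GαqKO (SD, n = 3 each).

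**Figure D3:**
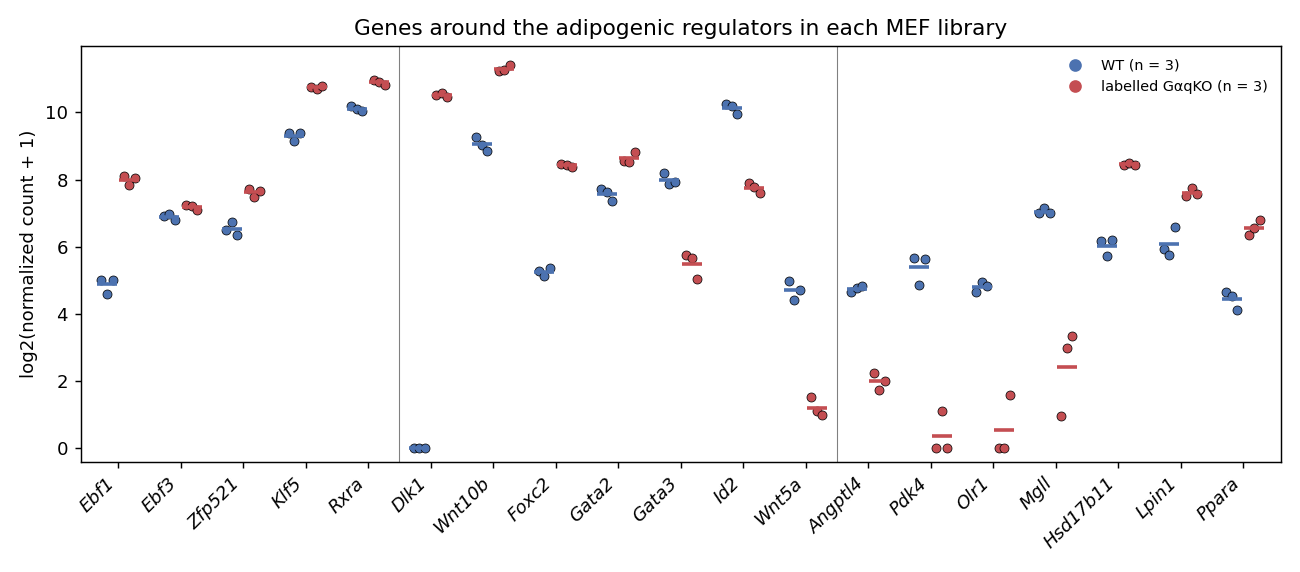
Normalized counts of 19 genes around the 10 members in each library, as log2(normalized count + 1), with WT in blue and libraries labelled GαqKO in red (3 each; bars are group means); vertical lines divide factors that favour fat cell formation or belong to a member's family, factors that oppose it, and lipid genes. Dlk1 is at 0 in each WT library and near 1470 normalized counts in the other group, and Angptl4, Pdk4, Olr1 and Mgll are near the floor in the libraries labelled GαqKO.

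Markers of adipose progenitors showed the widest spread. Of 18 listed, 11 were tested, 6 were higher and 4 lower, with a median log2 fold change of 0.23. Pdgfra, the receptor that marks fat cell progenitors, went from 19.6 ± 2.23 to 2319.7 ± 42.0 normalized counts (SD, n = 3 each), which is 6.82 on the log2 scale (adjusted p = 8.44e-15 from limma). Clec11a rose by 5.73 and Cd34 by 2.55 on the log2 scale. Wt1, a gene of mesothelium-derived progenitors, went from 738 ± 21.3 to 1.39 ± 1.52 normalized counts (SD, n = 3 each), and Icam1 and Cd24a fell by 3.88 and 2.64 on the log2 scale. Among brown and beige fat genes, 3 of 14 were tested. Prdm16, a determinant of brown fat that works with EBF2, was higher, at 2.76 ± 2.62 in WT and 85.2 ± 15.0 normalized counts in the libraries labelled GαqKO (SD, n = 3 each; log2 fold change 4.86, adjusted p = 2.60e-06 from limma). Zic1 was listed at 0 in each library labelled GαqKO and was at least 32.5-fold lower than in WT, and Ppargc1b differed by 0.44 (adjusted p = 0.0204 from limma), a call lost without WT replicate 1 or 2 or GαqKO replicate 1 (adjusted p up to 0.108 from limma) and with DESeq2. Ucp1, the thermogenic gene itself, was under the filter.

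Genes that define mature fat cells were low in both groups. Of 17 listed, 16 were in the table and 2 were tested, Cfd and Plin4, and neither was called. The other 14 did not exceed 7.31 normalized counts in any library. The summed level of all 16, Cfd and Plin4 included, was 41.8 to 49.1 normalized counts in the WT libraries and 45.1 to 53.4 in the libraries labelled GαqKO. Adipoq did not exceed 1.16 normalized counts in any library, and Lipe, whose exons lie inside the span of another gene, was listed at 0. Among coding genes whose exons lie wholly inside other genes' spans, 71.5% were listed at 0, so that value is given only as listed.

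Droplet genes gave 5 higher and 4 lower of 15 tested from a list of 24 (23 in the table), with a median log2 fold change of 0.18. Mgll, which encodes the lipase that cleaves monoglycerides, fell from 131 ± 8.13 to 5.65 ± 4.21 normalized counts (SD, n = 3 each; log2 fold change -4.62, adjusted p = 1.26e-06 from limma). Hsd17b11, a droplet-bound dehydrogenase gene, rose by 2.43 on the log2 scale, Fitm2, which serves droplet budding, by 1.08, and Hilpda, an inhibitor of droplet lipolysis, by 1.00. Pnpla2, the gene of the main triglyceride lipase, was not called, at 229 ± 29.3 and 195.1 ± 13.6 normalized counts (SD, n = 3 each; adjusted p = 0.0988 from limma). Triglyceride synthesis genes were divided, with 5 higher and 6 lower of 13 tested from a list of 19 and a median of 0.04. The only 1 of these past the fold threshold was Lpin1, which encodes a phosphatidate phosphatase and rose by 1.52 on the log2 scale.

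Genes of lipolysis at the cell surface, fatty acid uptake and activation gave 6 higher and 5 lower of 16 tested from a list of 28, with a median log2 fold change of 0.19. The 3 past the fold threshold were all lower. Angptl4, an inhibitor of lipoprotein lipase and a PPAR target, fell from 25.9 ± 1.75 to 3.03 ± 0.722 normalized counts (SD, n = 3 each; log2 fold change -2.75, adjusted p = 1.63e-05 from limma), so the enzyme gene Lpl and this inhibitor gene were low in the same libraries. Olr1, a scavenger receptor gene, fell by 4.28 and the fatty acid transporter gene Slc27a4 by 1.01 on the log2 scale. Lmf1, which Lpl needs to fold, differed by -0.36 (adjusted p = 0.0192 from limma). That call was lost without WT replicate 2 or 3 or GαqKO replicate 3 (adjusted p up to 0.0973 from limma). It was also lost with edgeR, with DESeq2 and with no trend in the prior spread. Gpihbp1, the anchor of Lpl on capillaries, was listed at 0. The activating enzymes Acsl1, Acsl3, Acsl4 and Acsl5 and the transporter Slc27a1 were higher, by 0.45 to 0.94 on the log2 scale.

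Fatty acid synthesis genes gave 3 higher and 6 lower of 14 tested from a list of 15, with a median log2 fold change of -0.21. Mid1ip1 fell by 1.32, Fasn, the synthase itself, by 0.43 and Scd2 by 0.53 on the log2 scale, whereas Scd1 rose by 0.86. Oxidation genes gave 4 higher and 6 lower of 17 tested from a list of 19, with a median of -0.06. Pdk4, which spares glucose when fatty acids are burnt and is a PPAR target, went from 42.4 ± 12.3 to 0.385 ± 0.668 normalized counts (SD, n = 3 each; log2 fold change -5.02, adjusted p = 5.70e-07 from limma). Cpt1c, a carnitine palmitoyltransferase gene, fell by 1.70 on the log2 scale. Ppara, the gene of the PPAR of oxidative tissues, rose from 20.9 ± 4.07 to 94.4 ± 15.6 normalized counts (log2 fold change 2.13, adjusted p = 1.69e-06 from limma), with 27.4% of its exon bases shared with Cdpf1.

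**Figure D4:**
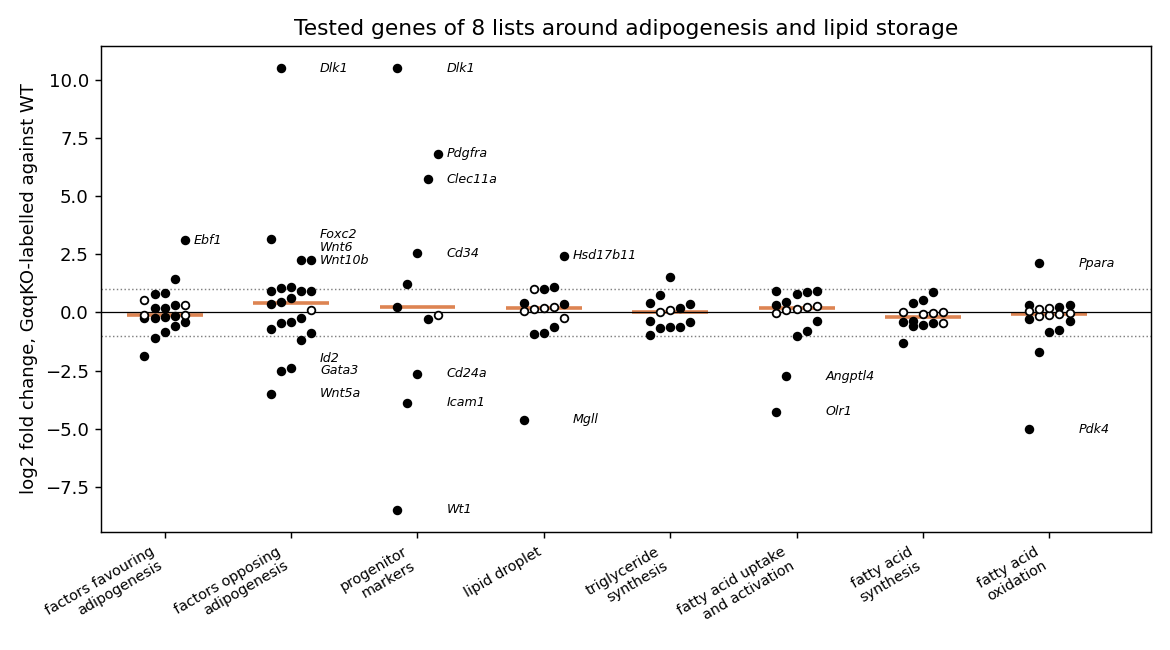
Fitted log2 fold change of each tested gene in 8 lists around the 10 members (vertical axis, libraries labelled GαqKO against WT); filled points have an adjusted p under 0.05, orange bars are list medians, dotted lines mark 1 in size, and names, stacked where they would collide, are given beyond 2. List medians lie between -0.21 and 0.41, while single genes such as Dlk1, Pdgfra, Wt1 and Pdk4 lie far from 0; the value of Dlk1, at 0 in WT, depends on the pseudocount.

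Markers of other cells were read beside these results, since fewer cells of a type and less RNA per cell cannot be told apart in bulk samples. Of 12 fibroblast markers, 11 were tested, 5 were higher and 6 lower. Vim was high in both groups, at 41785 ± 2519 and 33508 ± 729 normalized counts (SD, n = 3 each). Dcn went from 32.1 ± 3.00 to 1663 ± 53.8 and Thy1 from 0.696 ± 1.21 to 64.9 ± 10.1 normalized counts (SD, n = 3 each), so these defining genes were low in WT, whereas Col1a1 was higher there (16671 ± 1168 against 5774 ± 272; SD, n = 3 each). Of 8 epithelial markers, 3 were tested and 2 were lower: Krt14 fell by 7.11 and Cdh1 fell by 4.79 on the log2 scale. Their summed level was 503 to 524 normalized counts in WT and 26.3 to 48.6 in the libraries labelled GαqKO, the direction of Lpl, Cebpa, Pparg and Ebf2. The part of these markers in the results was not tested. Of 10 macrophage markers, which matter because macrophages also express Lpl, Cd36 and Fabp4, 4 were tested, Mrc1 rose by 3.58 (adjusted p = 0.00052 from limma, not called by DESeq2 on 5 libraries) and Cd68 fell by 0.48 on the log2 scale (adjusted p = 0.0296 from limma). The Cd68 call was lost without WT replicate 2 or 3 or GαqKO replicate 1 or 3 (adjusted p up to 0.122 from limma) and with DESeq2. Their sums ran from 151 to 161 normalized counts in WT and from 117 to 154 in the libraries labelled GαqKO, and Tyrobp and Itgam were listed at 0. Endothelial markers, which bear on Cd36 and Fabp4, summed to 14.6 to 35.5 and 22.2 to 49.7 normalized counts, with 1 of 9 tested and not called. Muscle markers summed to at most 24.3 normalized counts in any library, with 1 of 8 tested and not called, and Myog, Myf5 and Actc1 were listed at 0. Of 8 cartilage and bone markers, which summed to 3232 to 3442 normalized counts in WT and 4224 to 4287 in the other group, 2 were tested and Sox9 rose by 0.62 on the log2 scale.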

How the data were processed

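The authors selected poly-A RNA, mapped the read pairs to GRCm39 by Rbowtie2, assigned them to genes of GENCODE release 32 by featureCounts and used DESeq2. The deposited signal is a table of normalized counts, in which the gene counts of each library were divided by its size factor. Tool versions, the strand setting and any filter on low counts are not given in the sources used here. Gene symbols and coordinates came from GENCODE release M39 of the same build, which matched 56310 of 56953 identifiers (98.9%), and 643 were not matched. Promoter sequences came from RefSeq (GRCm38.p6 table), of which 6 members had an entry.

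In this re-analysis, limma 3.58.1 (R 4.3.3) was fitted to log2(normalized count + 1) of all 6 libraries with a trend in the prior spread. Genes entered if 3 or more libraries reached 10 normalized counts. Whole reads were recovered in 5 libraries from the steps between values, and the reads of GαqKO replicate 3 were not used. On those 5, edgeR 4.0.16 and DESeq2 1.42.0 were run as alternatives. Counting intervals are exact binomial, at 95%, and cover counting error only, as does the floor of 3 counts. Libraries of a group differed by more than counting noise, with a chi-square per gene of 2.44 to 5.50. The study states biological replicates without saying what separates them, so how independent the libraries are is not known. The limma p-values weigh each group difference against the spread between these libraries, moderated over all genes tested. Scripts were tested on simulated data and run with Python 3.11.15.

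The members and gene lists were chosen with earlier results of these data known. All 10 members are named, and from each list up to 3 genes with the largest rise and 3 with the largest fall past the thresholds, paralogues of members, and the most abundant markers. Other genes, such as those without a call and further called genes of a list, were named after their values were seen. Alternatives covered scaling, filter, pseudocount (0.5 and 5), a replicate block, the prior spread, limma's treat test and each library left out, where genes entered at the same minimum in as many libraries as the smaller group held.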

Additional observations from a re-analysis of the deposited data

How the results depend on the processing

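Across the alternatives other than limma's treat test, 138 fitted values of single members were compared with those reported. Of these, 131 kept their direction and their side of the threshold, 0 lost a call, 2 gained one (Plin2, given above) and 5 changed sign, all of them in genes that were not called. Zfp423 had log2 fold changes of 0.07 without WT replicate 1, 0.28 without GαqKO replicate 3, 0.30 with edgeR and 0.31 with DESeq2, and Cebpd had -0.0022 without GαqKO replicate 3. Over all left-out libraries their ranges were -0.57 to 0.28 and -0.0022 to 0.19. Of 512 counts of calls in the gene lists, 484 stayed within 1.5 times and 28 moved further.

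A filter of at least 10 normalized counts in every library leaves Pparg, Cebpa, Lpl, Ebf2, Fabp4 and Zfp423 untested by construction. Under it, 1 member was called higher and 0 lower at the adjusted p alone, 0 higher and 0 lower passed the fold threshold as well, and over all genes 831 were higher and 765 lower, against 1432 and 1486. Limma's treat test against a log2 fold change of 1 called 847 genes higher and 1027 lower. It kept Pparg, Cebpa, Lpl, Ebf2 and Fabp4, with adjusted p up to 0.0113, and not Cebpb. With a library left out, 1426 to 1545 genes were higher and 1492 to 1603 lower past both thresholds, 8712 to 9113 had an adjusted p under 0.05, and 2 to 3 members were called higher and 4 lower. Same-numbered libraries did not deviate together (r from -0.15 to -0.05 across genes), and r ran from -0.07 to 0.12 for libraries with different numbers. Deviations were taken from means of 3 libraries, so these values are tied to each other. They do not settle whether the numbers pair libraries. With the replicate block, 8962 genes had an adjusted p under 0.05, 1421 were higher and 1478 lower past both thresholds, and the calls of the 9 members were as reported.

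The size of the change in Pparg, Cebpa, Fabp4, Lpl and Ebf2 moved with the pseudocount, to -3.26, -4.33, 4.37, -7.25 and -2.68 at a pseudocount of 0.5 and to -2.19, -2.64, 2.34, -5.56 and -1.74 at 5 (limma). Cd36 was tested by limma only with no filter on low values, where it was not called (log2 fold change -0.63, standard error 0.740, adjusted p = 0.585). In the 2 libraries labelled GαqKO with recovered reads, the values of Cebpa and Lpl rest on 2 and 4 reads. GαqKO replicate 3, whose reads were not used, had 7.05 normalized counts of Cebpa and 1.01 of Lpl.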
